A study of Homo sapiens with 2 samples.

Results

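The snoRNA host noncoding genes are genes whose spliced RNA makes no known protein of its own and whose introns carry small nucleolar RNAs (snoRNAs). The 10 genes described here were SNHG1, SNHG5, SNHG6, SNHG8, SNHG12, SNHG15, SNHG16, GAS5, ZFAS1 and EPB41L4A-AS1, chosen by their current NCBI symbols through the Entrez gene ID and not by their level. All 10 had a value among the 23033 genes used. Total RNA was sequenced from control cells, labelled WT, and from FZR1 ko cells. The labels name T-47D, a luminal line of breast cancer, for both libraries, and both came from cells given cisplatin at 2 µg/ml, so no untreated cells enter the comparison. The FZR1 ko line was made with lentiviral CRISPR/Cas9 and grown from a single cell, so it stands for 1 clone. There was 1 library per condition, hence no difference below has a replicate check and no p-value was computed. The question was how the host RNAs differed between FZR1 ko and control cells under the drug.

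In both libraries the line lacked several markers of its label. ESR1, PGR, GATA3 and CDH1 were all below 1 FPKM and FOXA1 stood near 5 FPKM, while KRT8, KRT18 and VIM were abundant, the lowest of their values being 295 FPKM. The basal keratins KRT5 and KRT14 were below 1 FPKM. FZR1, the targeted gene, had 12.3 FPKM in control against 10.1 FPKM in FZR1 ko, a level that checks neither label, since small edits can leave the mRNA in place. Values are FPKM, fragments per kilobase of transcript per 1000000 mapped fragments, which hold no count of reads, so the depth behind a value is unknown. Summed over all genes, control held 502589 FPKM and FZR1 ko 500488 FPKM. Of the 244 short RNA genes that reached 1 FPKM in each library, 45 lay at or close to the most frequent ratio, 0.978. It was assumed to mark equal reads, and would then correspond to about 1.02 reads in FZR1 ko per read in control.

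A snoRNA is cut from the intron of its host after splicing and guides the modification of ribosomal and other RNA. Box C/D snoRNAs (SNORD) guide methylation of the ribose and box H/ACA snoRNAs (SNORA) guide the conversion of uridine to pseudouridine. The spliced exons of many noncoding hosts reach the cytoplasm, are bound by ribosomes and are broken down by nonsense-mediated decay (NMD), so their level depends on growth and translation as well as on transcription. Many hosts begin with a terminal oligopyrimidine (TOP) tract, as the mRNAs of ribosomal proteins do. That tract is a C followed by a run of C and T in the gene, and it ties translation to mTOR signalling.

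The start sites are shown because this tract is the feature the class is known for. RefSeq (GRCh38.p14) gave a start for 8 of the 10 genes, and SNHG6 and SNHG15 were not in that table. The windows below hold 30 bases before the start and 30 from it on, 5′ to 3′, and capitals mark the unbroken run of C and T that begins at the start base.
SNHG1: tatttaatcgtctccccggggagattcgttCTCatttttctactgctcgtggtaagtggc
SNHG5: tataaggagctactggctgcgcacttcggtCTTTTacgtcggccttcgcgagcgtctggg
SNHG12: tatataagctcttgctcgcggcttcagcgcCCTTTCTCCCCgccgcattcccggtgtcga
ZFAS1: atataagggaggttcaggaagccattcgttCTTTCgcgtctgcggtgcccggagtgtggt
GAS5: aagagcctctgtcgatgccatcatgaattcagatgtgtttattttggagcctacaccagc
These are chr11:62855856-62855915 on the minus strand, chr6:85678704-85678763 on the minus strand, chr1:28581844-28581903 on the minus strand, chr20:49278612-49278671 on the plus strand and chr1:173869016-173869075 on the minus strand. The run was 11 bases in SNHG12, 5 in SNHG5 and in ZFAS1, and 3 in SNHG1. The other 4 genes had a run of 1 base or none, 1 in SNHG8 and EPB41L4A-AS1 and 0 in SNHG16 and GAS5, of which GAS5 is shown. A C at the start with a run of at least 4 bases was present in 3 of the 8 genes (37.5%), in 49 of 67 cytosolic ribosomal protein genes with a start (73.1%), in 5 of 16 other noncoding snoRNA hosts (31.2%), and in 1868 of all 27305 genes in the table (6.84%). Each is a count of letters at 1 annotated start per entry, on the strand of the gene, and starts used in these cells may lie elsewhere.

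GAS5 was the most abundant of the 10 in FZR1 ko and the one with the largest difference in FPKM. It lies on the minus strand of chromosome 1 from 173863901 to 173869045 and is known as a growth arrest-specific RNA that accumulates when translation is held back. GAS5 had 229 FPKM in control against 393 FPKM in FZR1 ko, 1.71-fold higher in FZR1 ko (log2 ratio 0.78). Folds and log2 ratios are taken between FPKM + 1 in FZR1 ko and FPKM + 1 in control, and the added 1 FPKM shrinks the ratio of low genes. In bulk RNA, fewer cells of a kind and less RNA per cell cannot be told apart.

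SNHG8, on the plus strand of chromosome 4 from 118278762 to 118279823, hosts the H/ACA snoRNA SNORA24. SNHG8 had 26.7 FPKM in control against 49.9 FPKM in FZR1 ko, for a log2 ratio of 0.88, the highest of the 10. SNHG5 (chromosome 6, minus strand, 85677007 to 85678733) carries both U50 snoRNAs, SNORD50A and SNORD50B. SNHG5 had 37.3 FPKM in control against 53.1 FPKM in FZR1 ko (log2 ratio 0.50). SNHG6 (chromosome 8, minus strand, 66921690 to 66925541), the host of SNORD87, was the most abundant in control. SNHG6 had 270 FPKM in control against 355 FPKM in FZR1 ko (log2 ratio 0.39). These 4 genes, GAS5 included, had the highest ratios of the 10.

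SNHG16 stood at the other end. It lies on the plus strand of chromosome 17 from 76557764 to 76565348 and hosts the SNORD1 family. SNHG16 had 73.9 FPKM in control against 37.8 FPKM in FZR1 ko, 1.93-fold higher in control (log2 ratio -0.95). SNHG1, the host of the U22 cluster on the minus strand of chromosome 11 (62851978 to 62855885), was also lower. SNHG1 had 117 FPKM in control against 94.6 FPKM in FZR1 ko (log2 ratio -0.31). Thus SNHG1 and GAS5, the hosts with the most snoRNAs, lay on opposite sides of 0.

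In the other 4 hosts the levels of the libraries lay close together. SNHG15, on chromosome 7 (minus strand, 44983023 to 44986696), had 86.5 FPKM in control against 86.3 FPKM in FZR1 ko (log2 ratio -0.0021), and its sign turned when the ratios were centred on the median of all genes or rescaled to the same sum. ZFAS1, on chromosome 20 (plus strand, 49278178 to 49289260), had 207 and 200 FPKM (-0.050). SNHG12, on chromosome 1 (minus strand, 28578538 to 28582983), had 39.4 and 42.8 FPKM (0.12). EPB41L4A-AS1, on chromosome 5 (plus strand, 112160526 to 112162501), was the least abundant, with 18.8 and 20.8 FPKM (0.14).

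**Figure D1:**
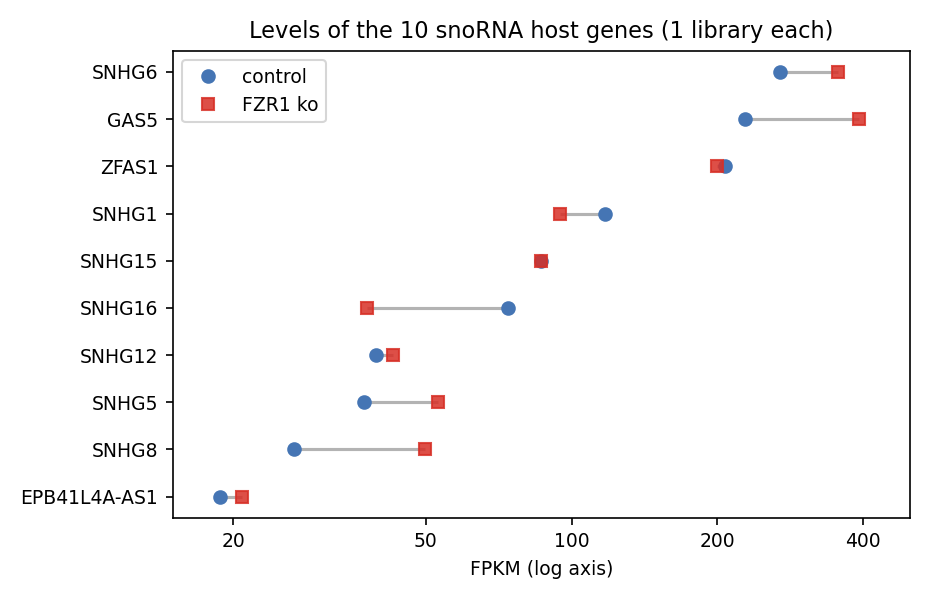
FPKM of the 10 host genes (log axis) in control (circles) and FZR1 ko (squares), 1 library each, sorted by control. GAS5 and SNHG8 lie clearly to the right in FZR1 ko and SNHG16 to the left, while the symbols of SNHG15 overlap.

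In control the order of the levels was SNHG6, GAS5, ZFAS1, SNHG1, SNHG15, SNHG16, SNHG12, SNHG5, SNHG8 and EPB41L4A-AS1. In FZR1 ko GAS5 stood above SNHG6, while ZFAS1, SNHG1 and SNHG15 kept their places, and SNHG5, SNHG8 and SNHG12 stood above SNHG16. With 1 library per condition, no spread is available to say which neighbours in this order differ. All 10 passed the filter of at least 1 FPKM in at least 1 library, with the lowest value at 18.8 FPKM. Their sum was 1106 FPKM in control (0.22% of the library sum) and 1333 FPKM in FZR1 ko (0.266%).

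None of the 10 differed at least 2-fold, a threshold that 1830 of 13554 genes kept (13.5%) passed. Of the 5938 genes that reached 10 FPKM in each library, which is where the hosts lie, 6.67% passed it, and of the 1110 lncRNA genes kept, 11.3%. At 1.5-fold, SNHG8 and GAS5 were higher and SNHG16 was lower in FZR1 ko, 3 of 10 genes against 35.6% of all genes kept (18.0% higher and 17.6% lower) and 25.5% of those that reached 10 FPKM. The median log2 ratio was 0.13 over the 10 genes, with 6 above 0 and 4 below, and -0.0048 over all genes kept. Over the lncRNA genes kept, the class the hosts belong to, the median was -0.28, with 367 above 0 and 743 below. Over the 93 lncRNA genes that reached 10 FPKM in each library, the 10 hosts among them, it was -0.22. The noncoding genes outside the 10 with a ratio nearest to their median, of 127 that reached 10 FPKM in each library, were PCCA-DT, SNORA61, SNORD84, LINC02582 and LINC01873, of which SNORA61 lies within SNHG12. Their log2 ratios lay within 0.045 of the median, a closeness that follows from how they were picked and that covers 2 libraries only.

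The other noncoding snoRNA hosts spread more widely. Of 19 genes listed, SNHG14 had no value, SNHG18 and MEG8 were listed at 0 in both libraries, and 16 were kept, with a median log2 ratio of 0.25, 9 above 0 and 7 below. That median moved to 0.10 with a pseudocount of 5 FPKM, to 0.050 with at least 1 FPKM in both libraries and to 0.025 with no filter. At least 2-fold higher in FZR1 ko were SNHG25, from 8.51 FPKM in control to 27.7 FPKM (log2 ratio 1.60), SNHG32, from 53.0 to 141 FPKM (1.40), and SNHG29, from 141 to 322 FPKM (1.19). SNHG9, from 10.2 to 4.27 FPKM (-1.09), was at least 2-fold lower. SNHG7 (log2 ratio 0.86), SNHG19 (0.77), SNHG4 (0.56), SNHG22 (0.50) and SNHG17 (0.45) were higher in FZR1 ko by less than 2-fold. DANCR (0.050) stood close to 0, and SNHG20 (-0.11), SNHG3 (-0.16), SNHG21 (-0.24), SNHG11 (-0.35), SNHG30 (-0.39) and SNHG10 (-0.92) were lower. Some of these genes are short, SNHG9, SNHG19 and SNHG25 among them, and the value of such a gene may come from few reads.

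**Figure D2:**
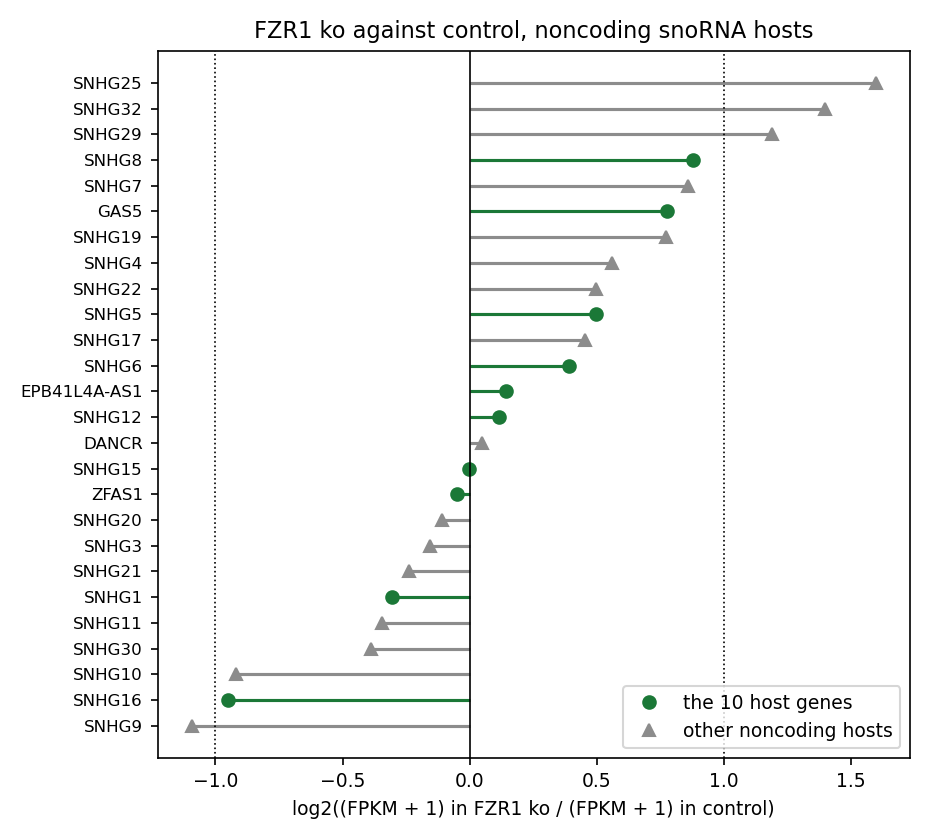
Log2 ratio of FZR1 ko to control for the 10 host genes (green circles) and the 16 other noncoding hosts kept (grey triangles), with dotted lines at 2-fold. The 10 lie between SNHG16 at -0.95 and SNHG8 at 0.88, inside both lines, while SNHG25, SNHG32, SNHG29 and SNHG9 lie outside.

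The snoRNAs inside the hosts give another readout of the same loci. RefSeq places 36 snoRNA genes within the 10 hosts, and 35 of them lie in an intron in more GENCODE 44 transcripts of the host than overlap an exon. The exception is SNORA103 in GAS5, which overlaps an exon in 82 of 91 transcripts. A read on a snoRNA gene may come from the mature snoRNA, from unspliced host RNA or from a transcript that keeps the intron, and these cannot be told apart here. SNORD81 and LOC124900306 had no value, and 34 were kept. The 4 most abundant in control among the GAS5 and SNHG12 snoRNAs of chromosome 1 whose level stayed above 20 FPKM in both libraries are printed with SNORD79, which had the largest ratio of the snoRNAs that reached 10 FPKM in each library. Capitals mark the C box (TGATGA) and D box (CTGA) of the SNORD genes and the ACA box of SNORA61, all on the strand of the host in hg38.
SNORD47: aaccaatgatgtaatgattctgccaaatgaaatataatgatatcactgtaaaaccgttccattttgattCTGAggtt
SNORD80: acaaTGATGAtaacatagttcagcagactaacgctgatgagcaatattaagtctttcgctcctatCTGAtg
SNORD76: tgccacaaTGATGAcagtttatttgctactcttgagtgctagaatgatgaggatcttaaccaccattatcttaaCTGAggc
SNORD79: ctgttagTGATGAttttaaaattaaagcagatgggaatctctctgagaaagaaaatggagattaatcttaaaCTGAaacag
SNORA61: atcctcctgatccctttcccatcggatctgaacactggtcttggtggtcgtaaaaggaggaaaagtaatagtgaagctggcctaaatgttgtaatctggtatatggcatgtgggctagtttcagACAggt
They lie at chr1:173864369-173864445, chr1:173864833-173864903, chr1:173866635-173866715, chr1:173865350-173865430 and chr1:28579764-28579893, all on the minus strand. The letters TGATGA were not found in SNORD47. The ACA of SNORA61 ends 3 bases before the end of the gene, the place where the box is known to lie. Of the 10 SNORD genes within GAS5, 8 have CTGA in their last 10 bases on the strand of GAS5 and 0 on the other strand.

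The snoRNAs of GAS5 lay on both sides of 0, while the host was higher in FZR1 ko. SNORD47 had 47.7 FPKM in control against 43.8 FPKM in FZR1 ko, SNORD80 had 44.1 and 58.0 FPKM, and SNORD76 had 32.9 and 29.6 FPKM. SNORD79 was higher, with 11.8 FPKM in control against 25.7 FPKM in FZR1 ko (log2 ratio 1.06). SNORD74 had 23.1 and 12.9 FPKM (-0.79) and SNORD44 had 14.3 and 16.4 FPKM (0.18). The other 4, SNORD75, SNORD77, SNORD78 and SNORA103, were below 10 FPKM in both libraries. Of the 10 snoRNAs kept in GAS5, 5 had the higher FPKM in FZR1 ko and 5 in control, among the latter SNORD75 with 2.49 and 2.43 FPKM, whose ratio of 0.978 was the most frequent among short RNA genes and was taken as equal reads. Their sum was 195 FPKM in control against 210 FPKM in FZR1 ko (log2 ratio 0.11), beside 0.78 for GAS5 itself.

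In SNHG1 the pattern was also mixed, with 4 of 8 snoRNAs higher and 4 lower. SNORD22 had 24.8 FPKM in control against 16.0 FPKM in FZR1 ko, SNORD28 had 18.2 and 11.9 FPKM, and SNORD26 had 10.6 and 16.4 FPKM. SNORD30 had 5.24 and 1.71 FPKM (log2 ratio -1.20), and SNORD31 had 3.72 FPKM in control against a listed 0 in FZR1 ko. SNORD25, SNORD27 and SNORD29 were between 5.76 and 9.67 FPKM and higher in FZR1 ko. The sum was 81.2 FPKM in control against 73.0 FPKM in FZR1 ko (-0.15), beside -0.31 for SNHG1.

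In ZFAS1 all 3 snoRNAs were lower in FZR1 ko although the host was nearly level. SNORD12 had 8.75 and 4.28 FPKM, SNORD12B had 7.92 and 3.44 FPKM (log2 ratio -1.01), and SNORD12C had 2.75 FPKM in control against a listed 0 in FZR1 ko. In SNHG5 both snoRNAs were lower while the host was higher. SNORD50A had 4.56 and 1.49 FPKM (-1.16) and SNORD50B had 6.78 and 3.32 FPKM (-0.85). These values are low.

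The 4 snoRNAs of SNHG12 had like levels in the libraries. SNORA61 had 23.2 FPKM in control against 25.7 FPKM in FZR1 ko, SNORD99 had 14.8 and 11.8 FPKM, SNORA16A had 4.80 and 4.69 FPKM, and SNORA44 had 4.29 and 4.19 FPKM. In SNHG16, whose own RNA was lower in FZR1 ko, SNORD1C had 4.04 and 3.95 FPKM, SNORD1A had 1.56 and 3.05 FPKM, and SNORD1B had 2.36 FPKM in control against a listed 0 in FZR1 ko. Of the hosts with 1 snoRNA, SNORD87 in SNHG6 had 13.3 and 20.3 FPKM, SNORA9 in SNHG15 had 19.4 and 12.5 FPKM, and SNORA13 in EPB41L4A-AS1 had 0.61 and 1.19 FPKM. SNORA24 in SNHG8 was listed at 0 in control but had 2.42 FPKM in FZR1 ko.

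Of the 34 snoRNAs, 2 were at least 2-fold higher and 6 at least 2-fold lower in FZR1 ko, 8 in all (23.5%), beside 37.3% of the 220 snoRNA genes kept (18.6% higher and 18.6% lower). Their median log2 ratio was -0.028, with 14 above 0 and 20 below, and that of all snoRNA genes kept was -0.022. Of the 20 below 0, 4 lay at the ratio of 0.978 that was assumed to mark equal reads, and the median itself lay at that ratio. Of the 8 past the 2-fold threshold, 4 were listed at 0 in 1 of the libraries, and 1, SNORD79, was among the 13 snoRNAs that reached 10 FPKM in each library. Of the 30 snoRNAs above 0 in both libraries, SNORA16A, SNORA44, SNORD1C and SNORD75 lay at the most frequent FPKM ratio of 0.978, which was itself used as equal reads and so counts for nothing here. Of the other 26, 12 had an FPKM ratio that, divided by 0.978, lay within 0.5% and rounding of a ratio of unequal whole numbers no larger than 4, as did 56 of 144 such snoRNA genes in the whole table. From FZR1 ko to control it was 1 to 3 in SNORD30 and SNORD50A and 1 to 2 in SNORD12, SNORD50B and SNORD77. Values that rest on few reads can take such ratios, but other values can too, and the number of reads is not given. Whether few reads lie behind these ratios was not tested.

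Genes next to the hosts were looked at because the sources used here do not say whether the libraries keep the strand, and without it reads of a host and an overlapping gene on the other strand cannot be told apart. SLC3A2, an amino acid transporter subunit whose start lies 224 bases from that of SNHG1, had 387 FPKM in control against 277 FPKM in FZR1 ko (log2 ratio -0.48). TRNAU1AP, which overlaps SNHG12, had 24.6 and 21.5 FPKM (-0.18). ZBTB37 and GAS5-AS1, which overlap GAS5, were below 4 FPKM in both libraries, and both were lower in FZR1 ko (-0.47 and -0.33). EPB41L4A, which overlaps EPB41L4A-AS1, had 1.41 and 3.48 FPKM (0.89), and MCMDC2, which overlaps SNHG6, was below 1 FPKM. All of these lie on the strand opposite to the host.

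Protein-coding genes that carry snoRNAs differed little. All 24 listed were kept, with a median log2 ratio of 0.11, 16 above 0 and 8 below, and none passed 2-fold. WDR43, a ribosome biogenesis factor, was highest (15.8 FPKM in control against 28.1 FPKM in FZR1 ko, 0.80), followed by CNOT1 of the deadenylase complex (0.59), and NOP56 (-0.48) and EIF4G2 (-0.35) were lowest. The cytosolic ribosomal protein genes, the main TOP class, had a median of 0.17 over 83 genes kept, with 70 above 0 and 13 below, and none of them passed 2-fold. RPS3 had 783 FPKM in control against 1215 FPKM in FZR1 ko (0.63), while RPS15A (-0.41) and FAU (-0.30) were lowest. Thus the median of the 10 hosts lay beside those of both groups, and their range, from -0.95 to 0.88, was wider.

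The proteins that bind or assemble snoRNAs also stayed within 2-fold. The 8 core proteins had a median of 0.067, with 5 above 0 and 3 below. FBL, the methyltransferase of box C/D particles, had 106 FPKM in control against 148 FPKM in FZR1 ko (0.48), and DKC1, the pseudouridine synthase of H/ACA particles, had 57.8 and 65.9 FPKM (0.19). NOP10, another H/ACA protein, had 208 and 107 FPKM (-0.95) and NOP56 of the box C/D particle had 199 and 142 FPKM (-0.48). The 11 assembly factors had a median of 0.15, with SHQ1 (0.46) and RUVBL1 (0.35) highest and ZNHIT3 (-0.61) and NOPCHAP1 (-0.36) lowest.

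Of the 17 NMD factors listed, 16 were kept, with a median of -0.053, 8 above 0 and 8 below, and with no filter the median was 0.011. SMG8, a regulator of the kinase SMG1, was the only one past 2-fold, with 44.2 FPKM in control against 18.8 FPKM in FZR1 ko (log2 ratio -1.19). EIF4A3 of the exon junction complex had 226 and 137 FPKM (-0.72), and UPF2 (0.67) and DHX34 (0.55) were highest. The 9 mRNAs listed as sensitive to NMD had a median of -0.55, with 1 above 0 and 8 below. Those past 2-fold were ATF3, with 123 and 29.8 FPKM (-2.01), and GADD45A, with 114 and 47.9 FPKM (-1.24), which are also known stress and DNA damage genes. DDIT3 (-0.55, the median itself), GADD45B (-0.58) and ATF4 (-0.11) are stress genes too, so NMD and stress cannot be told apart in this median. Of the others, UPP1 had -0.56 and PISD -0.42, while TBL2 (-0.066) and NAT9 (0.062) were highest and close to 0.

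The 16 genes of the RNA exosome and of 5′ to 3′ decay had a median of -0.16, with 5 above 0 and 11 below. MTREX, the helicase that feeds nuclear RNA to the exosome, passed 2-fold, with 13.0 FPKM in control against 28.1 FPKM in FZR1 ko (log2 ratio 1.05), followed by XRN2 (0.39). EXOSC6 (-0.99) and DCP1A (-0.73) were lowest. The 9 genes that tie TOP RNAs to growth had the highest median of the lists, 0.63, with 7 above 0 and 2 below. RPTOR, the mTORC1 scaffold, was past 2-fold, with 2.02 FPKM in control against 7.43 FPKM in FZR1 ko (1.48), and MTOR had 7.29 and 15.3 FPKM (0.98). TSC1, an inhibitor of mTORC1, had 15.8 and 9.23 FPKM (-0.72) and EIF4E had 6.44 and 6.22 FPKM (-0.043).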

How the data were processed

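RNAseq was analysed for cisplatin-treated cells labelled T-47D, with 1 control and 1 FZR1 ko library. The authors sequenced total RNA on a BGISEQ platform, aligned reads to the transcriptome with Bowtie2 and quantified them with RSEM on an hg38 reference from UCSC. Their processing notes name Bowtie2 2.2.5, HISAT2 2.1.0, Trimmomatic 0.36 and RSEM, and the methods give another Bowtie2 version. The version of the gene annotation, the fragment length and the strand protocol are not given in the sources used here. The deposited values are FPKM per Entrez gene ID to 2 decimals. Of 24663 rows, 1630 had no value, and 23033 genes were used, of which 22925 matched a symbol in RefSeq (GRCh38.p14, the same build as hg38). The log2 ratio of FZR1 ko to control was computed after adding 1 FPKM to both, over the 13554 genes that reached 1 FPKM in either library, and genes at least 2-fold different were counted. The computation was tested on simulated data with large changes planted in abundant genes, which checks the counting and not the behaviour of low values. No test across genes was made. snoRNAs were assigned to a host by position. GENCODE 44 gave introns and strands, and where it gave a snoRNA no strand, that of the host was used.

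The 10 genes and all lists were chosen with earlier results of these data known. Named genes were the 10 hosts, their snoRNAs, FZR1, the markers, the other noncoding hosts, the 2 highest and 2 lowest genes of each further list, genes that overlap a host or start within 1 kb of it, and the 5 nearest noncoding genes. The value of 1 gene within this rule is not reported here. The comparison of snoRNA ratios with whole-number ratios, the counts of genes that reached 10 FPKM in each library and the choice of sequences shown were made after values were seen. As alternatives, 0.1 or 5 FPKM was added, the filter was dropped or asked for 1 FPKM in each library, and the others were centring on the median, rescaling to a sum of 1000000, and thresholds of 1.5-fold and 4-fold. Python 3.11.15, numpy 2.4.6, pandas 2.3.3 and matplotlib 3.10.9 were used.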

Additional observations from a re-analysis of the deposited data

How the results depend on the processing

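No paired analysis was possible because there is only 1 library of control and 1 of FZR1 ko, and for that reason no replicate could be left out either. The log2 ratios of the 10 hosts moved by less than 0.1 under the 6 alternatives that apply to a ratio, and no sign turned except that of SNHG15, which ranged from -0.0022 to 0.0038. Much of this was fixed in advance. A change of filter leaves the ratio of a single gene as it is, centring shifts all genes alike, and a pseudocount moves abundant genes little. The number of hosts past the threshold was 0 except at 1.5-fold, where it was 3. Among all genes 1830 passed, against 2818 with a pseudocount of 0.1 FPKM, 453 with one of 5 FPKM, 4827 at 1.5-fold and 150 at 4-fold. For the snoRNAs inside the hosts 8 passed, against 0 with a pseudocount of 5 FPKM, 4 with at least 1 FPKM in both libraries, 16 at 1.5-fold and 1 at 4-fold. By construction, fewer genes pass when the pseudocount or the threshold is larger. The median of the other noncoding hosts, 0.25, was 0.10 with a pseudocount of 5 FPKM, 0.025 with no filter and 0.050 with at least 1 FPKM in both libraries, and that of the mRNAs sensitive to NMD, -0.55, was -0.44 with a pseudocount of 5 FPKM. For the other noncoding hosts, SNHG18 and MEG8 entered at a log2 ratio of 0 when there was no filter. SNHG22, with 0.56 FPKM in control, dropped out when 1 FPKM was asked for in both libraries. A larger pseudocount shrinks the ratios of low genes by construction. The other 56 of 60 list medians stayed within 0.1, although that of the NMD factors, -0.053, turned to 0.011 with no filter. The depth is unknown, which limits values that may rest on few reads, such as those of the short snoRNA genes.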
